A study of Mus musculus with 32 samples.

Results

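Control embryos of the knockdown experiments were compared between the 8-cell stage and the blastocyst. They made up 7 of the 32 samples of a mouse preimplantation RNA sequencing study, chosen by their label as knockdown controls: 4 libraries of 8-cell embryos and 3 libraries of blastocysts. The embryos of both groups had C57BL/6N mothers and DBA/2N fathers. The growth protocol describes siRNA-injected embryos kept in CZB medium with glutamine, and does not say what the controls received. After removal of the zona pellucida the cells were lysed and polyadenylated RNA was read as full-length cDNA by a modified Smart-seq2 protocol. The labels give no embryo number per library, no hour of collection and no separate cultures, so the spread between libraries may be technical.

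Between these stages a mouse embryo goes from compacting, largely equivalent blastomeres to a hollow sphere. Its outer cells form the trophectoderm, a polarised epithelium that seals with tight junctions, pumps fluid into the cavity and later builds the placenta. The inner cell mass holds the epiblast, which forms the body, and the primitive endoderm, which forms the yolk sac lining. Aerobic energy production and glucose use are known to increase over the same period.

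Values are FPKM (fragments per kilobase of transcript, relative to library size) as deposited, joined by gene symbol. The 45S ribosomal RNA gene Rn45s was left out and each library was scaled to an equal median over 5770 genes at 1 FPKM or more in all 7 libraries. A difference is blastocyst minus 8-cell, between group means of log2(scaled FPKM + 1), a scale that understates the change of low genes. The authors made separate tables for the 8-cell and the blastocyst libraries, so stage and table cannot be told apart and no significance test was run across them. A gene was called where the groups did not overlap, the difference was at least 1 and the higher group averaged at least 5 scaled FPKM.

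Blastocyst control 2 stood apart from blastocyst controls 1 and 3 in Rn45s and in scaling. Rn45s was listed at 0 in it, against 37959 and 38111 FPKM in blastocyst controls 1 and 3 (15% and 15.9% of the FPKM sum) and 24968 to 29618 FPKM in the 8-cell controls. The scale factor was 0.826 in blastocyst control 2, 1.37 and 1.33 in blastocyst controls 1 and 3, and 0.859 to 0.964 in the 8-cell controls. Between 7702 and 7988 genes reached 1 FPKM in the 8-cell controls and between 7951 and 8913 in the blastocyst controls, the most in control 2. Log2 values correlated at 0.952 to 0.964 within the 8-cell group, at 0.936 to 0.959 within the blastocyst group and at 0.628 to 0.735 across them. Blastocyst control 3, not control 2, correlated least with the 8-cell controls, at 0.628 to 0.664. Read totals are not used here, and low FPKM values gave no common step across the tables, so relative depth is unknown. Of genes above 0 and under 0.4 FPKM in both blastocyst controls 1 and 3, 2.79% shared a ratio to within 1%. For control 2 paired with control 1 or 3 this share was 0.938% and 1.05%, within the 0.894% to 1.6% found across the tables. The cause was not tested. Some abundant genes with near-identical copies were near 0 in every library, among them Gapdh (0 to 0.445 scaled FPKM), so a listed 0 is not read as absence.

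Of 8973 genes kept, with at least 1 scaled FPKM in 3 or more libraries, 1564 (17.4%) were called higher and 1297 (14.5%) lower in blastocysts, 31.9% in either direction. The groups did not overlap, blastocysts higher, for 2948 genes (32.9%), and blastocysts lower for 2389 (26.6%). The median difference over all kept genes was 0.13. Without scaling it was -0.15, and the split turned to 1165 higher and 1710 lower, so that 40.5% of called genes were higher in place of 54.7%. The median SD of a gene's log2 value was 0.31 in the 8-cell group and 0.30 in the blastocyst group. In whole embryos, fewer cells of a type and less RNA per cell cannot be told apart.

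**Figure D1:**
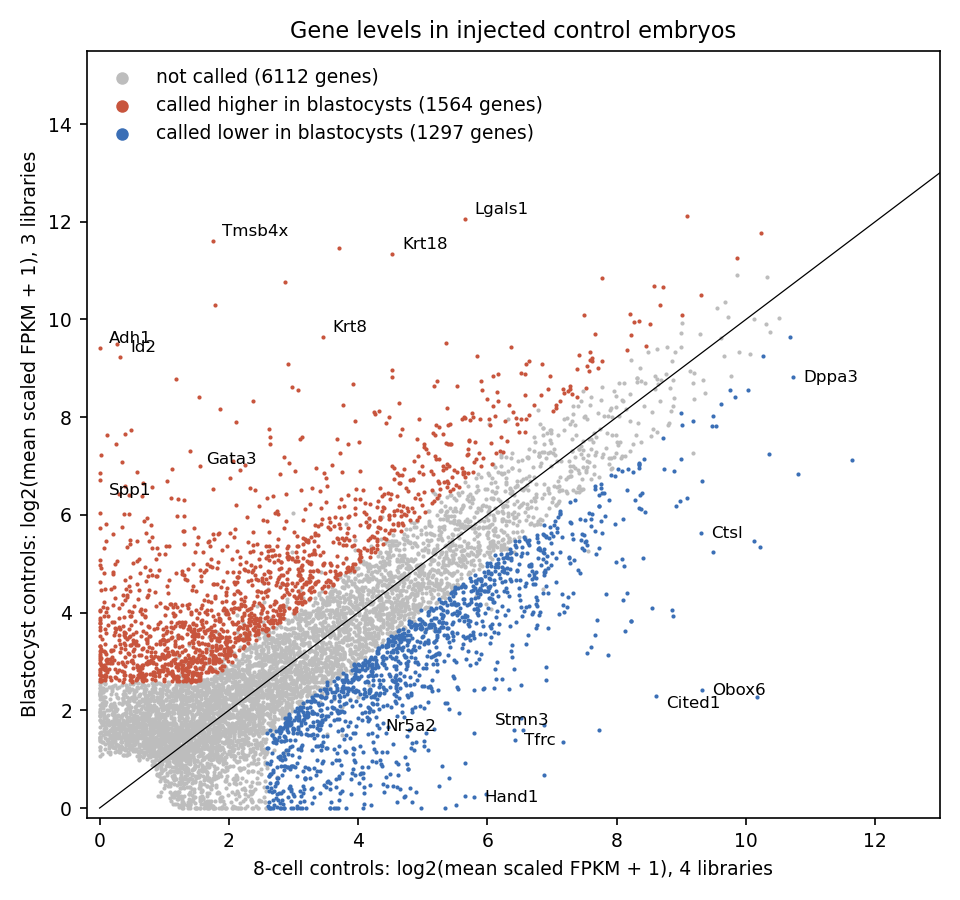
Mean level of each of 8973 kept genes in 8-cell controls (x axis) and blastocyst controls (y axis), both as log2(mean scaled FPKM + 1), with the line of equal level. The 1564 genes called higher in blastocysts lie above the line and the 1297 called lower lie below it, and genes such as Adh1, Id2 and Spp1 sit at the left edge, near 0 in 8-cell controls.

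Some of the genes with the largest differences were near 0 at the 8-cell stage and among the most abundant mRNAs of the blastocyst. Tmsb4x, which encodes the actin monomer-binding peptide thymosin beta 4, stood at 2.37, 2.45, 3.06 and 1.57 scaled FPKM in 8-cell controls 1 to 4 and at 4327, 3030 and 2044 in blastocyst controls 1 to 3. Its mean was 2.36 ± 0.61 (SD, n = 4) and 3134 ± 1145 (SD, n = 3), a difference of 9.82. Every blastocyst control lay far above every 8-cell control. Adh1, an alcohol dehydrogenase, was listed at 0 in all 4 8-cell controls and at 483, 658 and 905 scaled FPKM in the blastocyst controls. Slc15a2, a peptide transporter, was listed at 0 in 3 8-cell controls and at 0.334 in the other, against 191, 181 and 222 in blastocysts. Neither gene's groups overlapped.

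Plac1, an X-linked gene of the placenta, stood at 0, 0.103, 1.5 and 0 scaled FPKM in the 8-cell controls and at 173, 142 and 324 in the blastocyst controls. Dppa1 was listed at 0 in 3 8-cell controls and reached 137 to 154 in blastocysts. Tinagl1, a secreted matrix-associated protein, was at 0.14 to 0.495 and at 75.8 to 424. In each of these genes the lowest blastocyst control exceeded the highest 8-cell control many times over. Spp1, the secreted adhesion protein osteopontin, was listed at 0 in all 8-cell controls and at 148, 101 and 62.6 in blastocyst controls. Ngfrap1, the former symbol of Bex3, was listed at 0 in all 8-cell controls and at 197, 105 and 44.1 in blastocyst controls. Dmkn, which encodes the secreted epithelial protein dermokine, was at 35.6, 180 and 303, against 0 in 3 8-cell controls and 0.771 in the other.

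The largest differences the other way were in genes abundant at the 8-cell stage. Cited1, a transcriptional co-regulator, stood at 371, 309, 517 and 362 scaled FPKM in the 8-cell controls and at 4.25, 6.04 and 1.47 in the blastocyst controls. Its means of 390 ± 89.3 and 3.92 ± 2.3 differ by -6.41 on the log2 scale. Stmn3, a stathmin that destabilises microtubules, was at 224, 175, 203 and 238 and at 0.607, 4.54 and 0.918 (difference -6.35). The groups did not overlap in either gene. Tfrc, the transferrin receptor that brings iron into cells, was at 71.4, 70.4, 104 and 93.6 and at 1.14, 1.54 and 2.18, 52.5-fold lower in blastocysts. Gpd1l, a glycerol-3-phosphate dehydrogenase, was at 429 to 477 in the 8-cell controls and at 7.66 to 29.5 in blastocysts, 29.7-fold lower. Hsd17b14, a hydroxysteroid dehydrogenase, averaged 116 ± 30.8 and 2.27 ± 0.113 scaled FPKM.

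Several of these genes were near 0 in the blastocyst controls. Hcrt, best known as the precursor of the neuropeptide orexin, stood at 60.3, 38.2, 28 and 32.4 scaled FPKM in the 8-cell controls and was listed at 0 in all 3 blastocyst controls. Fkbp10, a prolyl isomerase of the endoplasmic reticulum, was at 23.8, 37.7, 40.3 and 19.8 and was likewise listed at 0 in all 3. Dmrtb1, a DM-domain factor known from the germ line, was at 55.2 to 74.1 and at 0 to 0.552. All 8-cell controls were above all blastocyst controls in these genes. Bex6 stood at 35 to 64.8 and 0 to 0.363. Obox6, Trim43b and Ppt2 were also among the 15 largest, at 571 to 749, 80.9 to 136 and 73.2 to 207 in the 8-cell controls and at 8.28 or less in the blastocyst controls, but near-identical copies make their values uncertain.

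The trophectoderm list, chosen with earlier results of these data known, had the largest median difference of the lists. Of 25 genes, 24 were kept, 19 were called higher and 3 lower, with a median difference of 4.32 against 0.13 over all kept genes. The summed level of the list was 204 to 307 scaled FPKM in the 8-cell controls and 6402 to 8745 in the blastocyst controls. Leaving out any 1 blastocyst control left 9 genes called higher of 13 or 14 kept, because a gene near 0 in 8-cell controls then no longer had 3 libraries at 1 FPKM. With the minimum in 2 libraries, 24 genes were kept and 18 or 19 of them were called higher in each case. Asking for 1 FPKM in all 7 libraries kept 9 genes, of which 6 were called higher and 2 lower. The list's median ran from 2.91 to 6.05 over the alternatives.

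Among the transcription factors, Cdx2, which maintains trophectoderm identity, stood at 0, 3.74, 0.723 and 1.21 scaled FPKM in 8-cell controls 1 to 4 and at 14.5, 17.8 and 18.3 in the blastocyst controls. Gata3 was at 0.162, 3.02, 2.42 and 2.08 and at 109, 109 and 164, with means of 1.92 ± 1.24 and 127 ± 31.3, 66.3-fold apart. Both were higher in every blastocyst control. Gata2 stood at 0, 0.0354, 0 and 0.563 and at 24.4, 31.5 and 86.6, and Eomes, a T-box factor of the trophoblast lineage, at 0, 0.291, 0.549 and 0 and at 14.6, 33 and 48.7. Elf5, an ETS factor of trophoblast stem cells, was listed at 0 in all 8-cell controls and was at 3.31, 5.01 and 7.42 in blastocysts. Id2, an inhibitor of basic helix-loop-helix factors, stood at 0, 0.655, 0 and 0.343 and at 576, 707 and 523, the largest difference of the list at 8.94.

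The list also held genes that were lower in blastocysts. Tead4, the TEAD factor required for the trophectoderm programme, stood at 55.5, 84.3, 74.5 and 109 scaled FPKM in the 8-cell controls and at 27.1, 25.8 and 21.9 in the blastocyst controls (difference -1.62). Tfap2c, an AP-2 factor, was at 64.5, 46, 45.6 and 42.5 and at 11.3, 23.5 and 32 (difference -1.22). Hand1, best known from trophoblast giant cells, was at 33.9, 59.6, 74.4 and 50.8 and was listed at 0, 0.5 and 0. None of these genes overlapped between the groups. Of the structural and membrane genes, Krt18, a keratin of simple epithelia, stood at 4.69, 17.5, 41 and 25.3 and at 2569, 2093 and 3077, 117-fold higher in blastocysts. Its partner Krt8 was at 3.51 to 22.2 and 605 to 916, uncertain because of near-identical copies. Krt7 and Krt19 were at 0.648 or less in the 8-cell controls and at 50.2 to 147 and 8.15 to 106 in blastocysts, and Cldn3, a claudin, was at 0 to 0.592 and 72.1 to 249. Tspan8, a tetraspanin, was at 0.799 to 1.72 and 305 to 707. Fabp3, a fatty acid-binding protein, was at 2.45 to 10.8 and 1719 to 1757, with near-identical copies.

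Promoter sequences are shown for the keratin pair Krt8 and Krt18, which differed in parallel, and for the regulators Id2 and Gata2. They run from 250 bases before to 50 bases after the RefSeq start on GRCm38.p6, a build other than the mm9 of the expression values, and were matched by symbol only. Capitals mark a match, on either strand, to the TEAD motif GGAATG, to AGATAA, which is bound by Gata factors, or to AAGGTCA, the motif of NR5A and ESRR receptors. Krt8 (chr15:102004293-102004592, minus strand) and Gata2 (chr6:88198414-88198713, plus strand, of its 2 promoters the one with a match) were chosen with their matches seen. Krt18 lies at chr15:102027966-102028265 on the plus strand and Id2 at chr12:25096043-25096342 on the minus strand.
Krt8: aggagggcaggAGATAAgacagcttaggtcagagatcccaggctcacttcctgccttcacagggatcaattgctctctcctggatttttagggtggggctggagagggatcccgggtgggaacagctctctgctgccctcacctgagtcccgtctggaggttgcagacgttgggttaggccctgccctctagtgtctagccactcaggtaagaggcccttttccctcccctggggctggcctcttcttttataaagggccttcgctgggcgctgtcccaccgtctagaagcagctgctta
Krt18: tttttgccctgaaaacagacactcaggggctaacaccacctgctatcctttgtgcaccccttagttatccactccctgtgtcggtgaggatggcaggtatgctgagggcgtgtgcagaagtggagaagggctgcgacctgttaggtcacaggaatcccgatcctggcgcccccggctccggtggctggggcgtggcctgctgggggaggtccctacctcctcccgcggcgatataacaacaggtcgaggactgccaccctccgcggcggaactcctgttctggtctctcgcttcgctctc
Id2: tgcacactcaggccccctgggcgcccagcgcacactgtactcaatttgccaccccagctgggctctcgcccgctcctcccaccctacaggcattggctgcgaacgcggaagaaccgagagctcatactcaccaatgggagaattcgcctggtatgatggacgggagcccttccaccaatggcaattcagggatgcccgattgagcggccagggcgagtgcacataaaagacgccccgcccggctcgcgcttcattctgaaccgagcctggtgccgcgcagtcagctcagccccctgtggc
Gata2: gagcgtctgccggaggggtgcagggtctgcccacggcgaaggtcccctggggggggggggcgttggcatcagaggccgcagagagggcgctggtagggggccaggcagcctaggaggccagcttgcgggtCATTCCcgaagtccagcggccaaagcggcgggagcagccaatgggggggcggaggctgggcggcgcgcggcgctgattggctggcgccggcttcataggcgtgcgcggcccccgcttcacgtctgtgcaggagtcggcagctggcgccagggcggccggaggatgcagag

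The Krt8 window held 1 Gata match, at position -239 from the start, and the Gata2 window 1 TEAD match on the opposite strand, at -120. The Krt18 and Id2 windows held none of these letters, which says nothing about the factors. TEAD matches were in 15.3% of 1591 promoters of genes called higher, 12.1% of 1222 promoters of genes called lower, 12% of the 8702 promoters of kept genes and 14.7% of all 32851 promoters. Gata matches were in 6.73%, 6.55%, 6.35% and 11.2%, and NR5A and ESRR matches in 3.46%, 3.11%, 3.23% and 4.72%. Among 37 promoters of trophectoderm or junction genes called higher, 6 held the TEAD letters, 2 the Gata letters and 0 the NR5A and ESRR letters.

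Genes that move ions and water into the blastocoel went both ways. Of 13 kept, 5 were called higher and 2 lower (median difference 0.89), against 17.4% and 14.5% of all kept genes. The counts of the list were 4 and 4 without scaling, 5 and 5 of 14 with scaling to an equal sum, and 6 and 4 without 8-cell control 1. Atp1b1, the beta 1 subunit of the sodium pump, stood at 1.03, 1.23, 1.65 and 3.57 scaled FPKM in the 8-cell controls and at 43.2, 38.2 and 55.5 in the blastocyst controls, 24.4-fold higher. Slc9a3r1, which ties membrane transporters to ezrin, was at 2.3, 2.36, 0 and 1.9 and at 162, 126 and 183. Aqp8, a water channel, was listed at 0 in all 8-cell controls and was at 8.14, 3.31 and 20. All 3 genes were separate between the groups. Atp1b3, another beta subunit, was at 23.5 to 67.4 and 17.7 to 19.9 and was not called, uncertain because of near-identical copies. Aqp11 and Slc12a2, a sodium-potassium-chloride cotransporter, were called lower, at 11.2 to 50.7 and 10.3 to 16.9 in 8-cell controls and at 0.342 to 2.92 and 0.284 to 0.777 in blastocysts.

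Of 25 junction and polarity genes, all kept, 15 were called higher and 1 lower, with a median difference of 1.55. Epcam, an epithelial adhesion molecule, stood at 15.6, 13.2, 30.4 and 12.7 scaled FPKM in the 8-cell controls and at 182, 264 and 375 in the blastocyst controls. Cdh1, the cadherin of compaction, was at 20, 17.6, 21.3 and 18 and at 65.5, 30.3 and 83.1 (means 19.3 ± 1.72 and 59.6 ± 26.9, 3.1-fold). The blastocyst values lay above the 8-cell values in both. Desmosome genes were low at the 8-cell stage: Dsp, desmoplakin, was at 0.063 to 0.38 and 7.07 to 10.2, and Dsg2, a desmoglein, at 0 to 0.167 and 5.98 to 7.2. Pard3, of the apical polarity complex, was at 0.423 to 1.93 and 9.53 to 14.2. Tjp1, a tight junction scaffold, was at 2.34 to 3.67 and 2.64 to 3.79, and Ctnnb1, beta-catenin, at 34.9 to 52.9 and 39.7 to 55.4, so that the groups overlapped. Gja1, the gap junction protein connexin 43, was the member called lower, at 104, 128, 114 and 122 and at 43.4, 41 and 24.5.

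Genes of the epiblast and of pluripotency had no common direction, with 4 called higher and 7 lower of 20 kept, against 17.4% and 14.5% of all kept genes. The list's median difference was 0.07 and ran from -0.20 to 0.19 over the alternatives. Nanog, a homeobox factor of the epiblast, stood at 10.2, 11.1, 5.92 and 1.56 scaled FPKM in the 8-cell controls and at 21.9, 49.2 and 25.4 in the blastocyst controls, 4.48-fold higher. Tfcp2l1, of the ground state of stem cells, was at 2.97 to 7.37 and 21.9 to 31.7, and Zfp42 (Rex1) at 10.4 to 22.2 and 31.5 to 47.8. These were separate between the groups. Pou5f1 (Oct4) went the other way, at 170, 155, 85.6 and 116 and at 37.2, 38.8 and 25.3, 3.9-fold lower in blastocyst controls. Between the knockdown libraries of the same stages its difference was -0.12, and it was not called. Klf2, a Krüppel-like factor, was at 23.7, 17.1, 12.6 and 13.5 and at 1.65, 3.18 and 0.708. Spic, an ETS factor, was at 172, 279, 118 and 173 and at 2.93, 18.9 and 2.36, and Tbx3, a T-box factor, averaged 51.2 ± 9.39 and 8.31 ± 2.41. In all 4 the 8-cell controls were the higher. Sox2 was under the filter, at 0 to 0.132 in the 8-cell controls and at 1.8, 1.08 and 0.633 in the blastocyst controls, and Sall4 averaged 54.9 ± 5.63 and 55.4 ± 4.57.

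Among primitive endoderm genes, 14 of 25 were kept, 7 were called higher and 1, Cited1, lower (median difference 1.83). Leaving out any 1 blastocyst control left 3 higher of 8 kept, and 4 members reached 1 scaled FPKM in all 7 libraries. With the minimum in 2 libraries, 7, 8 and 5 were higher without blastocyst controls 1, 2 and 3. Those higher were mostly basement membrane and secretory genes. Sparc, a matrix glycoprotein, stood at 0.453, 1.6, 0.756 and 1.21 scaled FPKM in the 8-cell controls and at 30.8, 9.54 and 66.1 in the blastocyst controls. Lamc1, a laminin chain, was at 0.102, 0.285, 0.273 and 0.714 and at 10.7, 5.01 and 14.2. Lama1, another chain, was at 0 to 0.0297 and at 7.43, 1.39 and 15.8. The groups were separate in each, and blastocyst control 2 was lowest and control 3 highest in all of them. The same order held for Serpinh1 (7.68, 1.92 and 14.1), a collagen chaperone, and Col4a1 (5.5, 1.37 and 12.3), a type IV collagen chain. Without control 2 the list's median was 2.38, and with control 2 as the single blastocyst library it was 0.98. Apoe, a lipid carrier, was at 9.58 to 17.3 and 199 to 274.

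Regulators of the lineage differed among themselves. Gata6 stood at 20.2, 19.2, 19.4 and 21.5 scaled FPKM in the 8-cell controls and at 16.6, 21.5 and 10.4 in the blastocyst controls. Gata4 was at 12.7, 13.7, 7.75 and 1.53 and at 4.36, 0.592 and 7.21. The groups overlapped in both, and neither was called. Sox17, Sox7 and Pdgfra were under the filter and separate, with blastocysts higher. Sox17 was listed at 0 in all 8-cell controls and was at 0.858, 0.316 and 1.26 in blastocysts. Sox7 was listed at 0 in all 8-cell controls and was at 0.759, 0.313 and 3.18, and Pdgfra, a growth factor receptor, was at 0 to 0.692 and at 2.1, 0.731 and 2.08. In these 3 genes too, blastocyst control 2 was lowest.

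**Figure D2:**
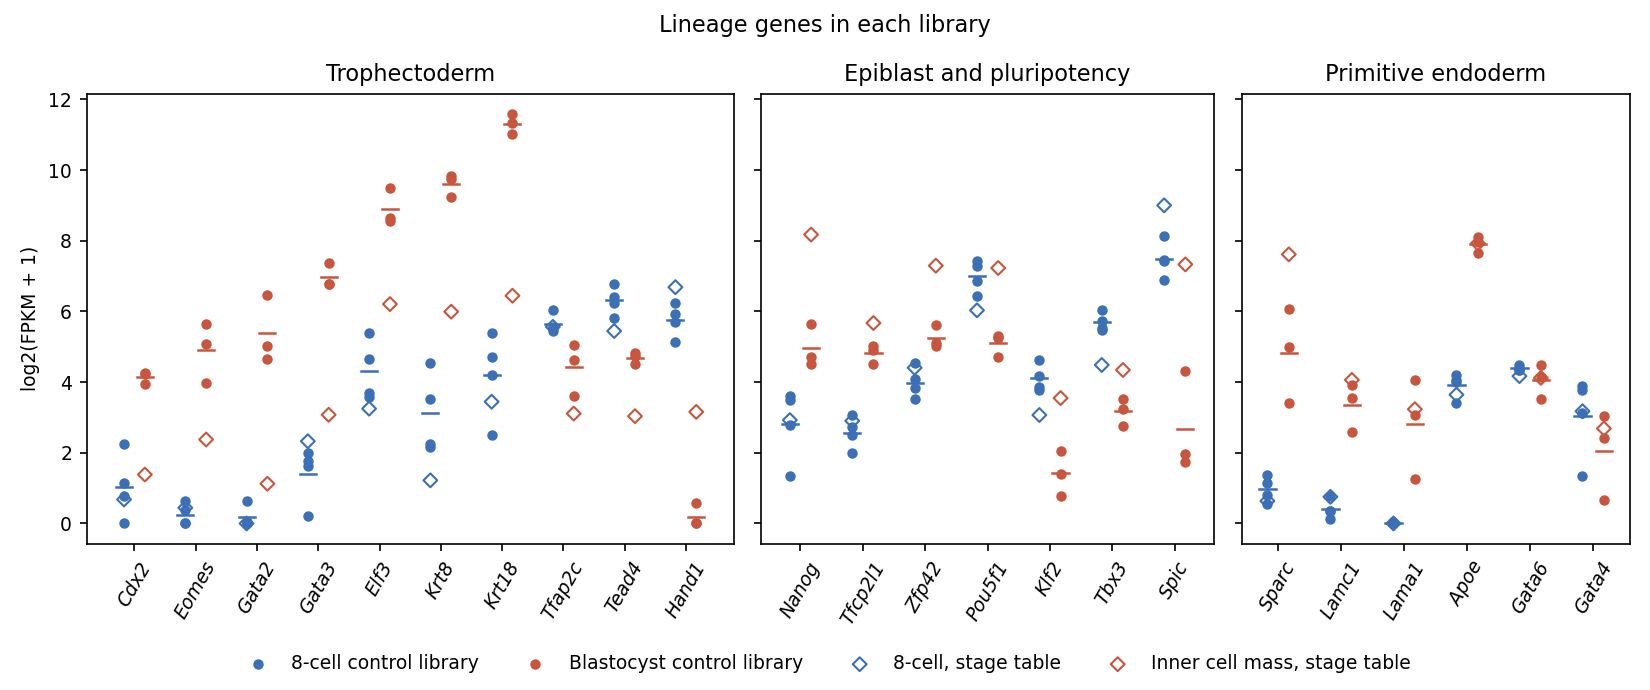
Lineage genes in every library, as log2(FPKM + 1): filled points are the scaled values of 4 8-cell controls and 3 blastocyst controls with their mean of log values as a bar, and open diamonds the deposited 8-cell and inner cell mass values of uninjected embryos. Krt18 and Gata3 are separate between the control groups, Gata6 overlaps, and Pou5f1 is lower in blastocyst controls but higher in the inner cell mass (149 FPKM) than in the uninjected 8-cell value (64.4 FPKM).

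Actin cytoskeleton genes were higher almost throughout. Of 34 kept, 26 were called higher and 1 lower, with a median difference of 2.23 that stayed between 1.90 and 2.64 over the alternatives. Actb, beta-actin, stood at 510, 698, 449 and 506 scaled FPKM in the 8-cell controls and at 5524, 3439 and 4433 in the blastocyst controls. Its means of 541 ± 109 and 4465 ± 1043 are 8.26-fold apart, and the groups were separate. Capg, an actin filament capper, was at 0.833 to 2.96 and 275 to 431, and Msn, moesin, which links actin to the membrane, at 0.159 to 0.406 and 36.8 to 79.3. Arpc5 and Arpc2, subunits of the branching Arp2/3 complex, averaged 15.1 and 62.7 in 8-cell controls and 179 and 332 in blastocysts. The non-muscle myosin chains Myh9 and Myh10 averaged 1.98 and 2.46 against 24.2 and 18.7. Actn2, an alpha-actinin best known from muscle, was the member called lower (means 20.6 and 1.91). Of the 34 genes 10 have near-identical copies, and over the other 24 the median difference was 2.47.

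Annexins, galectins and S100 proteins, which bind membranes, sugars and calcium, held 10 genes called higher and 1 lower of 17 kept (median difference 2.67). Without blastocyst control 2 the counts were 6 and 1 of 13, and with the minimum then set to 2 libraries 10 and 1 of 17. Lgals1, galectin 1, stood at 44.3, 50.4, 59.7 and 41.9 scaled FPKM in the 8-cell controls and at 3583, 3362 and 5866 in the blastocyst controls, 87-fold higher. Anxa2, which binds S100a10 at the membrane, was at 2.01, 3.7, 0.994 and 3.85 and at 302, 260 and 297. Anxa6 was at 0.106 to 1.02 and 68.8 to 108. The blastocyst controls were higher in each, without overlap. S100a10 averaged 21.4 and 255, and Lgals8 was the member called lower, at 32.8 and 9.62.

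**Figure D3:**
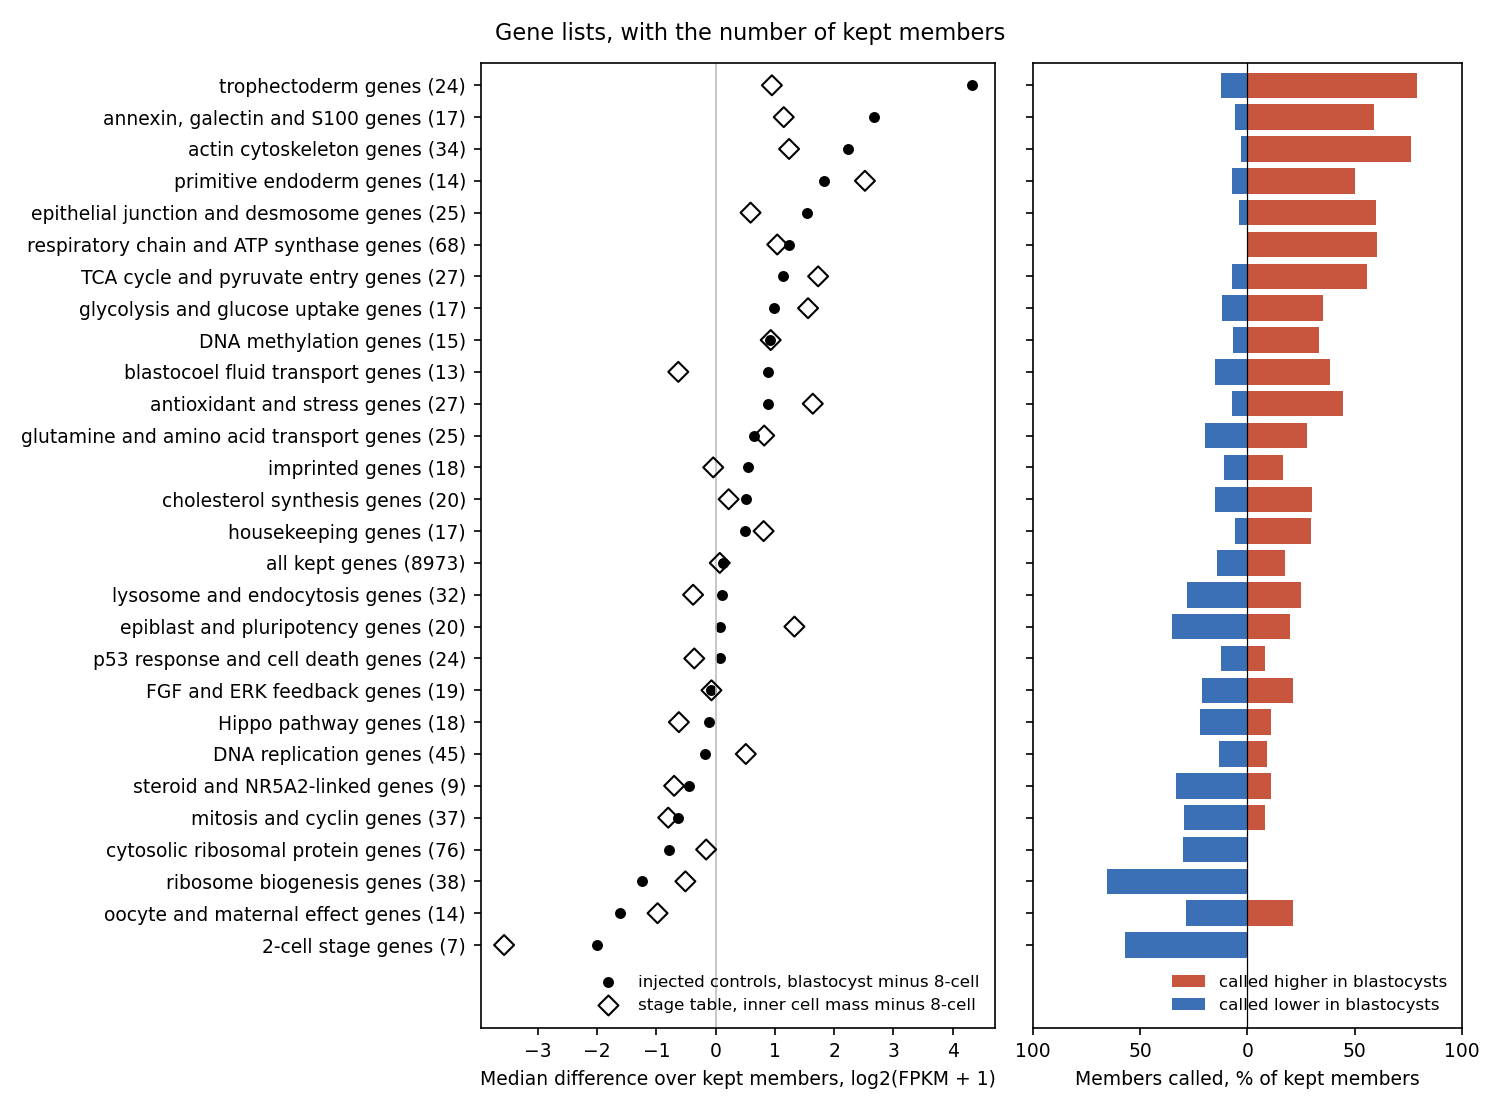
Gene lists with 5 or more kept members. Left, the median difference over each list in the injected controls (filled points) and in the stage table of uninjected embryos (open diamonds), in log2(FPKM + 1); right, the share of kept members called higher or lower in blastocyst controls. Trophectoderm genes lie at 4.32 and all 8973 kept genes at 0.13; epiblast genes lie at 0.07 in the controls and at 1.33 in the stage table.

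Genes of mitochondrial energy production were higher as a group. Of 68 kept genes of the respiratory chain and ATP synthase, 41 were called higher and 0 lower, 67 had a positive difference, and the median was 1.24, between 0.91 and 1.53 over the alternatives. Complex I, which takes electrons from NADH, had 27 of 36 genes called and a median of 1.52. Complex III with cytochrome c had 4 of 9 (median 0.98), complex IV 6 of 10 (1.13) and ATP synthase 4 of 13 (0.68). Ndufa1, a complex I subunit, stood at 52.7, 64.6, 66.3 and 51.6 scaled FPKM in the 8-cell controls and at 482, 346 and 446 in the blastocyst controls, 7.22-fold higher. Uqcrq, of complex III, averaged 294 ± 58.5 and 1109 ± 270, and Atp5e, of ATP synthase, 406 ± 90.8 and 1251 ± 377. The groups were separate in all 3.

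Tricarboxylic acid cycle and pyruvate entry genes held 15 called higher and 2 lower of 27 kept (median difference 1.14). Without scaling the count was 8 higher and 3 lower. Mdh1, cytosolic malate dehydrogenase, stood at 1.43, 5.93, 1.75 and 3.98 scaled FPKM and at 47.7, 59.9 and 45.7, and Idh3a, a subunit of the cycle's NAD-linked isocitrate dehydrogenase, at 8.19, 12.1, 7.62 and 6.34 and at 75.6, 89.9 and 55.5. The genes called lower were Mpc1 and Mpc2, which form the mitochondrial pyruvate carrier. Mpc2 averaged 182 and 42.4, and Mpc1 9.84 and 1.42, with near-identical copies. In glycolysis 6 were called higher and 2 lower of 17 kept (median difference 0.99), and 6 and 4 of 22 with scaling to an equal sum. Among all kept genes 17.4% were called higher and 14.5% lower. The hexokinases went in opposite directions. Hk1 stood at 18.9, 18.4, 16.8 and 26.9 in the 8-cell controls and at 0.0656, 0.45 and 0.261 in the blastocyst controls, while Hk2 was at 0.787, 1.74, 4.68 and 2.97 and at 27.1, 27.5 and 33.4. Each was separate between the groups. Slc2a3, a high-affinity glucose transporter, was at 1.95 to 9.29 and 46.5 to 181, and Tpi1, triosephosphate isomerase, at 6.24 to 16.3 and 133 to 165.

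Genes of ribosome production were lower as a group. All 38 ribosome biogenesis genes were kept, 25 were called lower and 0 higher, 37 had a negative difference, and the median was -1.25, between -1.58 and -1.07 over the alternatives. Wdr43, of the small-subunit processome, stood at 116, 94.3, 75.5 and 104 scaled FPKM in the 8-cell controls and at 9.14, 12.7 and 10.4 in the blastocyst controls, 9.08-fold lower. Nolc1, a nucleolar phosphoprotein, was at 162, 132, 126 and 184 and at 20.2, 19.2 and 17.7. Ncl, nucleolin, averaged 66.5 ± 5.45 and 19.9 ± 4.02. The 8-cell controls were the higher in every case. Nop56, of the box C/D complexes that modify ribosomal RNA, was at 79.8 to 99.6 and 69.2 to 70.7 and was not called, its difference being -0.34. Of 76 cytosolic ribosomal protein genes, 23 were called lower and 0 higher, with a median of -0.78, and 37 were called lower without scaling. In the knockdown libraries 14 were called lower and 2 higher, with a median of -0.33. Of these 76, 69 have near-identical copies, and over the other 7 the median in the controls was -0.49 with 1 called lower. The 8-cell level of Rps16, of the small subunit, was 18.9 to 38.8 and its blastocyst level 1.54 to 4.97, which is uncertain for that reason.

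**Figure D4:**
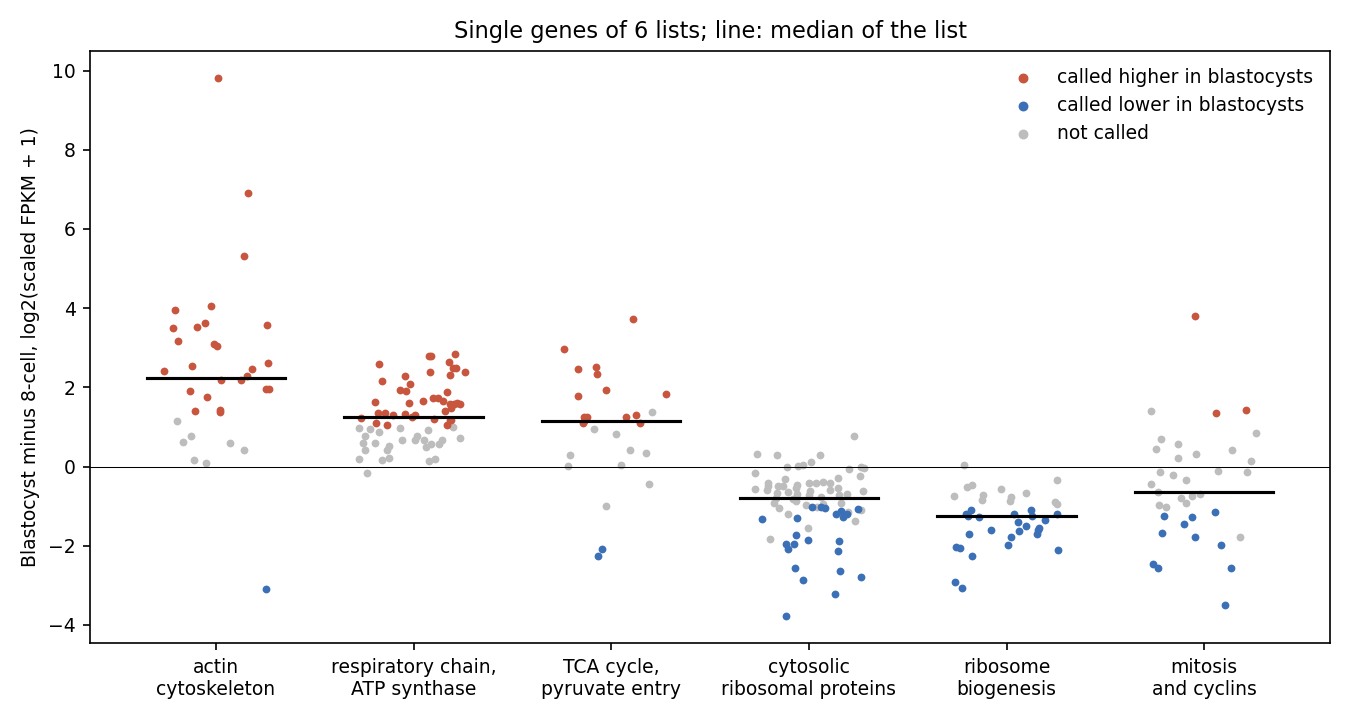
Difference between blastocyst and 8-cell controls in log2(scaled FPKM + 1) for each kept gene of 6 lists, with the list's median as a line. Of the respiratory chain genes 67 of 68 lie above 0, and of the ribosome biogenesis genes 37 of 38 lie below it; the highest point of the actin list is Tmsb4x at 9.82.

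Transcript length differed between these lists. Median transcript length was 1003 bases for the respiratory list, 1100 for the ribosomal proteins, 2753 for ribosome biogenesis and 2364 for the actin list. Over all kept genes the median difference was 0.39 under 1000 bases, 0.20 from 1000 to 2000, 0.14 from 2000 to 4000 and 0.06 above 4000. The share of length in the list differences was not tested.

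Lysosome and endocytosis genes went both ways, with 8 called higher and 9 lower of 32 kept (median difference 0.10, and -0.24 without scaling). The shares of all kept genes were 17.4% higher and 14.5% lower. Of the list members called lower 5 were cathepsins, proteases of the lysosome lumen. Ctsl, cathepsin L, stood at 670, 446, 736 and 675 scaled FPKM in the 8-cell controls and at 43.3, 49 and 52.8 in the blastocyst controls, 13.1-fold lower. Ctsz was at 316, 176, 186 and 232 and at 12, 10.3 and 37.4, and Ctsa and Ctsc averaged 331 and 217 against 69 and 48.5. Endocytosis genes stood on both sides. The receptor Tfrc was the lowest of the list (difference -5.04), while Dab2 and Lrp2 were among those higher. Dab2, an adaptor for lipoprotein receptors, was at 5.55, 3.02, 10.2 and 2.99 and at 80.8, 83.2 and 84, and Lrp2, megalin, at 0.435 to 0.834 and 13.1 to 17.1. Psap, the precursor of the saposins, was at 185 to 234 and at 647, 291 and 1547.

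Of 14 kept oocyte and maternal effect genes 4 were called lower and 3 higher (median difference -1.62), against 14.5% and 17.4% of all kept genes. Scaling to an equal sum kept 20, with 11 lower and 2 higher (median -2.66). Zp3, a zona pellucida protein, stood at 15.6, 25.3, 25.3 and 27.9 scaled FPKM in the 8-cell controls and at 1.12, 0.116 and 0.53 in the blastocyst controls. Oosp1, secreted by oocytes, was at 12.6, 34.5, 89.4 and 42.3 and listed at 0, 0.116 and 0. Both were separate between the groups. Dppa3 (Stella), which protects maternal chromatin from demethylation, averaged 1703 ± 179 and 450 ± 299, uncertain because of near-identical copies. Members of the subcortical maternal complex went both ways. Ooep was at 0.89 to 2.6 and 17.9 to 35.7, and Khdc3 at 287 to 483 and 532 to 797, both called higher. Padi6 was called lower, at 7.32, 3.83, 10.7 and 9.61 and at 0.203, 0.412 and 0.502. Tle6 overlapped, at 3.32 to 8.12 and 2.56 to 4.8, and Nlrp5 was under the filter, at 0.526 to 1.63 and 0 to 0.0408. Of 7 kept 2-cell genes 4 were lower and 0 higher, 3 of them uncertain. In uninjected embryos most of these 4 were not highest at the 2-cell stage. Obox6 stood at 478 FPKM at the 2-cell and at 1302 at the 8-cell stage, Tdpoz2 at 8.85 and 12.3, and Sp110 at 59.8 and 93.4. Ubtfl1 alone was higher at the 2-cell stage (67.1 and 22.7). Zscan4c was listed at 0 in all 7 libraries.

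Of 37 kept mitosis and cyclin genes 11 were called lower and 3 higher (median difference -0.64), and of 45 DNA replication genes 6 lower and 4 higher (median -0.18), against 31.9% of all kept genes called in either direction. Without scaling 10 replication genes were lower and 2 higher (median -0.44), and scaling to an equal sum called 16 mitosis genes lower and 5 higher of 39. Ccne1, cyclin E1, stood at 112, 78, 58.6 and 23.3 scaled FPKM in the 8-cell controls and at 6.83, 3.25 and 3.46 in the blastocyst controls, 15-fold lower. Ccna2, cyclin A2, was at 163, 137, 195 and 182 and at 24.8, 38.2 and 22.2, and Cdt1, a licensing factor of replication, at 196, 137, 150 and 161 and at 39.1, 25 and 34.6. The groups were separate in each. Mycn went the other way, at 0 to 0.728 and 11.6 to 21.6, as did Gins2, of the replicative helicase, at 1.84 to 5.01 and 21.3 to 56.3.

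The Hippo pathway, which reads cell position, held 2 called higher and 4 lower of 18 kept (median difference -0.12), close to the 31.9% of all kept genes called in either direction. Without 8-cell control 3 or 4, 2 were called lower, and scaling to an equal sum called 6 higher and 5 lower of 22. Tead2 stood at 3.79, 2.14, 0.719 and 2.03 scaled FPKM and at 11.7, 13.7 and 18.7, and Nf2, an upstream activator of the kinases, at 28.6, 17.5, 23.6 and 27.2 and at 5.3, 5.28 and 4.93. The FGF and ERK list held 4 higher and 4 lower of 19 (median -0.08, and 0.12 with blastocyst control 2 as the single blastocyst library). Without blastocyst control 2 it held 2 higher and 3 lower of 18, and with the minimum then set to 2 libraries 3 and 3 of 19. Dusp6, a phosphatase that limits ERK, was listed at 0 in 3 8-cell controls and at 0.187 in the other and stood at 18.2, 27.5 and 35.8 in blastocysts. Grb2, the adaptor of growth factor receptors, was at 29.7 to 53 and 2.67 to 3.52, with near-identical copies. Nr5a2, the nuclear receptor targeted in the other 8-cell embryos of the study, was at 21.1, 18.3, 12.6 and 21.6 and at 1.63, 4.2 and 2.12, 6.95-fold lower in blastocyst controls.

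Of 27 antioxidant and stress genes 12 were called higher and 2 lower (median difference 0.89; 7 higher and 3 lower without scaling). Gsta4, a glutathione transferase, stood at 5.26, 4.05, 7.92 and 3.39 scaled FPKM and at 221, 240 and 182, and Nfe2l2 (Nrf2), the regulator of such genes, at 0.636 to 3.54 and 14 to 21.3. The DNA methylation list had 5 higher and 1 lower of 15, with Dnmt3b, a de novo methyltransferase, at 2.95 to 4.39 and 15.1 to 18. Imprinted genes had 3 higher and 2 lower of 18, among them Igf2r, the receptor that clears IGF2, at 17.1 to 21.3 and 3.83 to 4.39. Cholesterol synthesis (6 and 3 of 20), amino acid transport (7 and 5 of 25), p53 response (2 and 3 of 24), steroid (1 and 3 of 9) and housekeeping genes (5 and 1 of 17) gave higher and lower calls in that order. Over all kept genes 31.9% were called in either direction. The imprinted and p53 lists lay under that share and the housekeeping list near it. Without scaling the housekeeping genes were 1 higher and 2 lower. In the knockdown libraries the steroid list was 3 higher and 1 lower and the p53 list 0 and 7. Amino acid transport gave 4 higher and 5 lower of 22 without blastocyst control 2, and 4 and 6 without control 3. With the minimum set to 2 libraries, it gave 7 and 5 of 27 without control 2. Imprinted genes gave 5 and 2 of 16 without control 2, 4 and 4 of 15 without control 3, and 5 and 5 of 21 with scaling to an equal sum.

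Most markers of other cell types were low. Of 15 cumulus and granulosa markers 2 were kept, and 9, among them Has2, Foxl2 and Cyp19a1, were listed at 0 in all 7 libraries. Amhr2 was called lower (12.4 to 28.9 and 0.206 to 0.97 scaled FPKM), and it stood at 18.5 FPKM in uninjected 8-cell embryos. Serpine2, the other marker kept, was not called and had a difference of 1.19. The summed level of that list was 23.7 to 42.2 in 8-cell controls and 12.8 to 53.3 in blastocyst controls. In blastocyst control 1, with the sum of 53.3, 1 member reached 1 scaled FPKM, and it was not Amhr2 (0.206). The summed sperm, blood and fibroblast lists reached 21.1, 4.93 and 4.3 at most, with 5, 3 and 3 members listed at 0 throughout, Ptprc among them.

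The stage table, made from other, uninjected embryos with 1 value per stage, holds an 8-cell and an inner cell mass value within 1 table. The inner cell mass lacks trophectoderm, so it is no full counterpart of the blastocyst. Of the 1564 genes called higher, 930 (59.5%) were higher in the inner cell mass than in 8-cell embryos by at least 1, 32 (2.05%) lower by at least 1, and 602 between. Of the 1297 called lower, 767 (59.1%) were lower, 15 (1.16%) higher and 515 between. Over all 8973 kept genes 22.6% were higher and 18.2% lower there. These counts use the stage values as deposited. With stage values scaled to the same median as the controls, 859 of the genes called higher and 787 of those called lower had the same direction. The scaled uninjected 8-cell value lay on the 8-cell side of all 3 blastocyst controls for 1480 (94.6%) and 1178 (90.8%) of the called genes. These genes were selected for groups that lie apart, and no such share was taken over the other kept genes for comparison.

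Trophectoderm genes parted most from the stage table, with a median of 4.32 in the controls and 0.95 in it. Of the 24 kept trophectoderm genes, 12 were still higher in the inner cell mass by at least 1, and 3 were lower by at least 1. Krt18 stood at 9.89 FPKM in the uninjected 8-cell and at 86.1 in the inner cell mass, and Krt8 at 1.33 and 62.7. Other members differed less or not at all. Gata3 stood at 4.02 and 7.43 FPKM, Krt7 at 0.585 and 0.207, and Krt19 was listed at 0 in both. Blastocoel genes had a median of -0.63 there. Epiblast genes had a median of 1.33, and Nanog stood at 6.59 and 288 FPKM and Pou5f1 at 64.4 and 149, the second against its direction in whole blastocysts. Ribosome biogenesis kept a median below 0 (-0.51) and the respiratory list one above 0 (1.04). The cytosolic ribosomal protein list had a median of -0.16, and 4 of its 23 genes called lower were lower there by at least 1. Of the genes that went against the stage table, Mt1, a metallothionein, stood at 987, 930, 1507 and 1377 scaled FPKM in 8-cell controls and at 3906, 3536 and 3076 in blastocyst controls, but at 1292 and 182 FPKM in the stage table. Nolc1 was listed at 0 in the uninjected 8-cell value, the only such 0 among 1704 genes at 20 or more scaled FPKM in all 8-cell controls.

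**Figure D5:**
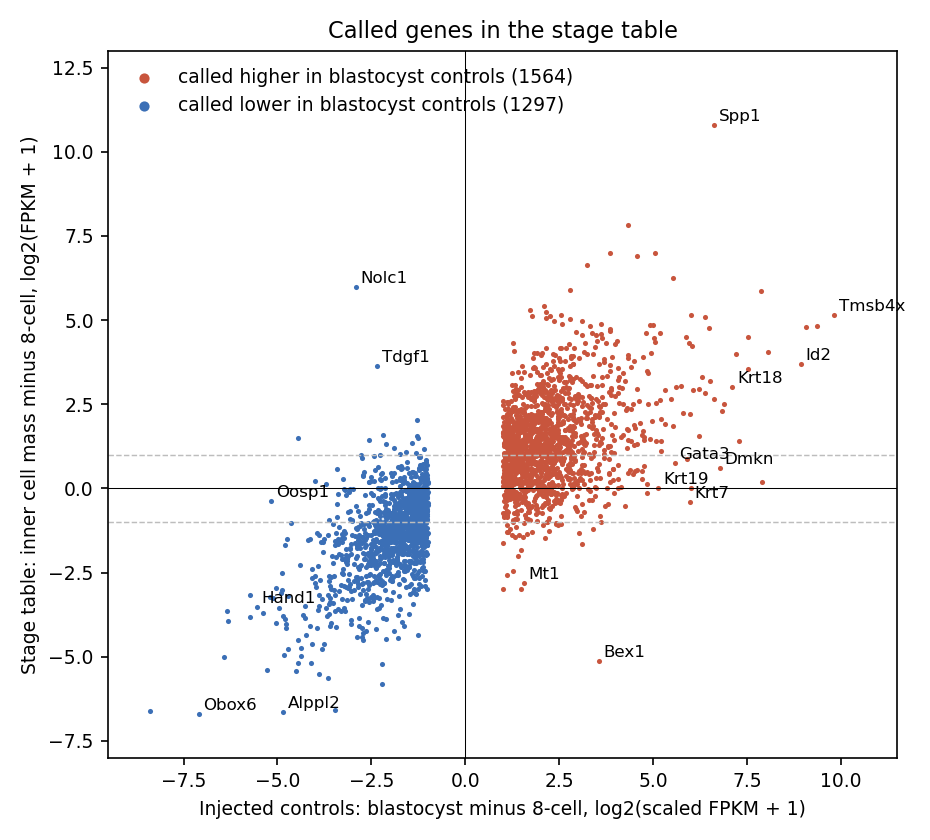
Genes called in the injected controls, with their difference between blastocyst and 8-cell controls (x axis) and between inner cell mass and 8-cell in the stage table (y axis), both in log2(FPKM + 1); dashed lines mark a stage-table difference of 1 either way. Of 1564 genes called higher 32 lie below the lower dashed line, and of 1297 called lower 15 lie above the upper one, with Nolc1 the highest of these.

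Across the 8 stages of that table, from MII oocyte to embryonic stem cells, the called genes peaked at different times. Genes called higher had their highest value in the inner cell mass for 25.9% and in embryonic stem cells for 29.5%, against 11.7% and 21.3% of all kept genes. Genes called lower peaked at the 4-cell stage for 24% and at the 8-cell stage for 26.5%, against 8.97% and 9.75%. Injected embryos of the knockdown groups, 4 8-cell libraries with Nr5a2 knocked down and 4 blastocyst libraries with Gata4 knocked down, were compared in the same way as other libraries of the same 2 tables. They gave 1611 genes higher (17.3%) and 1287 lower (13.8%) of 9309 kept. Of the genes called higher in controls 1246 (79.7%) were called higher there too and 0 lower, and of those called lower 951 (73.3%) were called lower and 1 higher, Fdx1, the electron donor of steroid-forming enzymes. Spp1 was not called there, with a difference of 2.17 against 6.63 in the controls. Neither were Dusp6 (0.26 against 4.70), Pou5f1 (-0.12 against -1.91) or Nr5a2 itself (-0.49 against -2.45).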

How the data were processed

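Polyadenylated RNA of 7 control libraries was measured. The submitters' processing notes list CASAVA 1.8, STAR 2.4.0 and the mm9 build, and name Cufflinks 2.2.1 for the blastocyst libraries. The tool behind the 8-cell values is not given in the sources used here. The authors deposited FPKM in 3 tables, 1 column per library in 2 of them and 1 per stage in the third. The way a stage's replicates were combined is not given in the sources used here.

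Tables were joined by symbol (22536 genes), Rn45s was dropped, and the steps and call rule are given with the results. Members and gene lists were chosen with earlier results of these data known. Named genes are the 15 largest called differences in each direction, passing over unnamed loci, up to 4 called members per list and a fixed set of lineage genes. Other list members are given as examples. Some genes that the rule names are not reported here. Copies, at 95% identity over 50% of a coding sequence, were found with minimap2 2.31 on GENCODE M21. Of 11439 genes at 1 FPKM or more, 99.4% matched by symbol. The call rule was checked on simulated data. Alternatives changed the scaling, pseudocount, filter, thresholds and libraries, among them each library left out and same-numbered libraries taken as pairs. Read depth per library is unknown, so no counting intervals are given. Python 3.11.15, numpy 2.4.6, pandas 2.3.3 and matplotlib 3.10.9 were used.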

Additional observations from a re-analysis of the deposited data

Results flagged for a closer look

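Among 140 named genes with values in the 4 8-cell controls, 16 had a library far from the other 3. Chance flags about 1 in 20 groups. The 3 blastocyst controls were too few for this check. All values are scaled FPKM.

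8-cell control 4 was the distant library in 8 of the 16. It was high in Tdgf1 (80.6 against 38.5 to 45), Slc2a3 (9.29 against 1.95 to 2.6) and Gata2 (0.563 against 0 to 0.0354), and low in Suclg1 (30.5 against 45.1 to 46.6) and Mvk (1.35 against 3.79 to 4.22). It alone had a value above 0 for Slc15a2 (0.334), Dmkn (0.771) and Dusp6 (0.187). 8-cell control 3 was high in Plac1 (1.5 against 0 to 0.103), Epcam (30.4 against 12.7 to 15.6) and Slc6a14 (1.18 against 0 to 0.191), low in Cyr61 (1.23 against 3.31 to 3.69) and the single library above 0 in Dppa1 (0.0663). 8-cell control 1 was high in Ezr (0.839 against 0.296 to 0.327) and Tfap2c (64.5 against 42.5 to 46), and 8-cell control 2 in Mycn (0.728 against 0 to 0.123). All of these genes were called, and the call rule itself asks that every 8-cell value lie on its own side of all 3 blastocyst controls.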

How the results depend on the processing

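No significance test was run, so the alternatives were read as counts and differences. Leaving out 1 library at a time gave 1394 to 1596 genes called higher, 1280 to 1352 called lower and 1562 to 1738 called genes with the same direction in the stage table (1697 with all libraries). Scaling to an equal sum called 2085 genes lower, or 2073 with Rn45s in the sum. Asking for 1 FPKM in all 7 libraries called 944 higher, and a difference of at least 2 called 796 higher and 482 lower, with 922 in the same direction in the stage table. No gene called in 1 direction was called in the other under any setting, apart from 1 in the knockdown libraries. With those libraries the differences of 5 named genes changed sign: Tdgf1 to 0.61, Cyr61 to -0.41, Hmox1 to -0.45, Fdx1 to 1.66 and Tubb5 to -0.51.

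The replicate block, which asks for the difference in each of 3 same-numbered pairs, called 1119 higher and 870 lower. Same-numbered libraries share only a number: their deviations from the group means correlated at -0.04 in all 3 pairs. Of the list medians, 457 of the recomputed values moved by less than the spread between libraries and 83 by more. For named genes these counts were 2347 and 448. After the data were seen, blastocyst control 2 was also taken as the single blastocyst library (1375 higher, 1317 lower). Each blastocyst control was also left out with the minimum set to 2 libraries (1576 to 1659 higher, 1280 to 1346 lower). The medians of epiblast, lysosome and p53 genes crossed 0 between scalings. That of FGF and ERK genes did so with control 2 alone (0.12), and those of cholesterol, amino acid transport and steroid genes in the knockdown libraries (-0.33, -0.09 and 1.07). Genes under 1 FPKM are near the limit of what these libraries resolve.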

Other observations

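Cyp11a1, the side-chain cleavage enzyme that starts steroid synthesis, was under the filter, listed at 0 in all 4 8-cell controls and at 0.652, 5.36 and 8.04 scaled FPKM in blastocyst controls 1 to 3. Xist, the RNA of X inactivation, was at 0.00894 or less in the 8-cell controls and at 0.339, 32.3 and 40.3 in the blastocyst controls, so that blastocyst control 1 stood far below the other 2. The sperm chromatin genes Prm1, Prm2 and Tnp1 were at 3.4, 1.09 and 1.76 in 8-cell control 4 and listed at 0 in all other libraries, apart from Prm1 at 0.725 in blastocyst control 2.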
